A study of Mus musculus with 6 samples.

Results

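The forkhead (Fox) family of transcription factors was followed across both compartments of the mouse bladder at embryonic day 13 (Theiler stage 21). Members were found by symbol alone, as Fox, a letter from a to s and a number, among genes with a single symbol in the platform's annotation. This gave 37 genes with 82 probe sets, out of 18193 genes tested.

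All samples were wild-type FVB/N embryos of unrecorded sex. Each bladder was cut free above the ureters and kept for 20 minutes in 20 µM EDTA, a chelator that loosens epithelium, before the mesenchyme and the urothelium (the epithelial lining) were parted with a needle. RNA of 3 mesenchyme samples (replicates 1, 2 and 4 of the labels) and 3 urothelium samples (replicates 5, 7 and 8) was amplified in 2 rounds and hybridised to Affymetrix MOE430 arrays. The labels say that samples were not pooled but not that they came from separate embryos, so p-values measure only the spread between these samples, which may be technical. With 3 arrays a compartment, precision is limited by their number.

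Forkhead proteins bind DNA through a winged-helix domain that is shared across the family, and differ outside it. FoxA factors are pioneer factors of endodermal epithelia, able to bind closed chromatin. FoxF and FoxC factors act in visceral mesenchyme and in vessels, and FoxF genes are known to respond to hedgehog signals that come from the neighbouring epithelium. FoxO factors are held out of the nucleus by insulin and AKT signalling, FoxM1 drives mitotic genes and FoxP factors mostly repress.

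The compartments were as labelled. All 10 urothelial markers, among them Cdh1, Epcam and Trp63, were higher in urothelium, with a summed signal of 344631 to 370557 there and 9016 to 12104 in mesenchyme. All 10 mesenchymal markers, among them Col1a1, Pdgfra and Snai2, were higher in mesenchyme. The mesenchyme also carried other cells: 8 of 8 endothelial markers, 6 of 6 smooth muscle markers and 5 of 8 macrophage markers were higher there. Of 5 measured red cell markers 3 were higher in mesenchyme and 0 in urothelium. Their summed signal overlapped, at 69266 to 88046 in mesenchyme and 56760 to 103447 in urothelium. Most of this sum was the signal of Hbb-y, with means of 70227 in mesenchyme and 74564 in urothelium, which was not among the 3. Of 4 mesothelial markers 2 were higher in mesenchyme and 1 in urothelium. Mesenchyme 1 and urothelium 5 had a 3' to 5' beta-actin ratio of 8.40 and 8.60, against 2.29 to 4.89 on the other arrays, a sign of amplified RNA that is shorter at its 5' end. Results are therefore also given without both arrays where that changes them.

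In the forkhead family 4 genes were higher in urothelium (Foxa1, Foxq1, Foxa2 and Foxo3) and 4 were higher in mesenchyme (Foxf1, Foxc2, Foxf2 and Foxj2). These 8 of 37 members are 21.6%, and 14.7% of all genes passed the same test (limma, Benjamini-Hochberg adjusted p under 0.05). In each direction the family's share was 10.8%, beside a background of 5.8% of genes higher in urothelium and 8.91% higher in mesenchyme. A difference of at least 4-fold past the test was found for 6 members (16.2%), against 7.84% of all genes. The arrays of the compartments did not overlap for 11 members (29.7%), and for 30.1% of all genes, so in this respect the family was close to the background. Differences are of log2(signal + 45), urothelium minus mesenchyme; the added 45 shrinks the differences of dim genes. They are given with the moderated standard error (SE). The median member differed by −0.24 and the median gene by −0.11. Without both mesenchyme 1 and urothelium 5 the family's median was 0.034, and the counts were 4 higher in urothelium and 3 in mesenchyme. The median of all genes without these arrays is not given here, so a shift of the family cannot be told apart from one of all genes. As these are bulk samples, fewer cells of a type and less RNA per cell cannot be told apart.

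**Figure D1:**
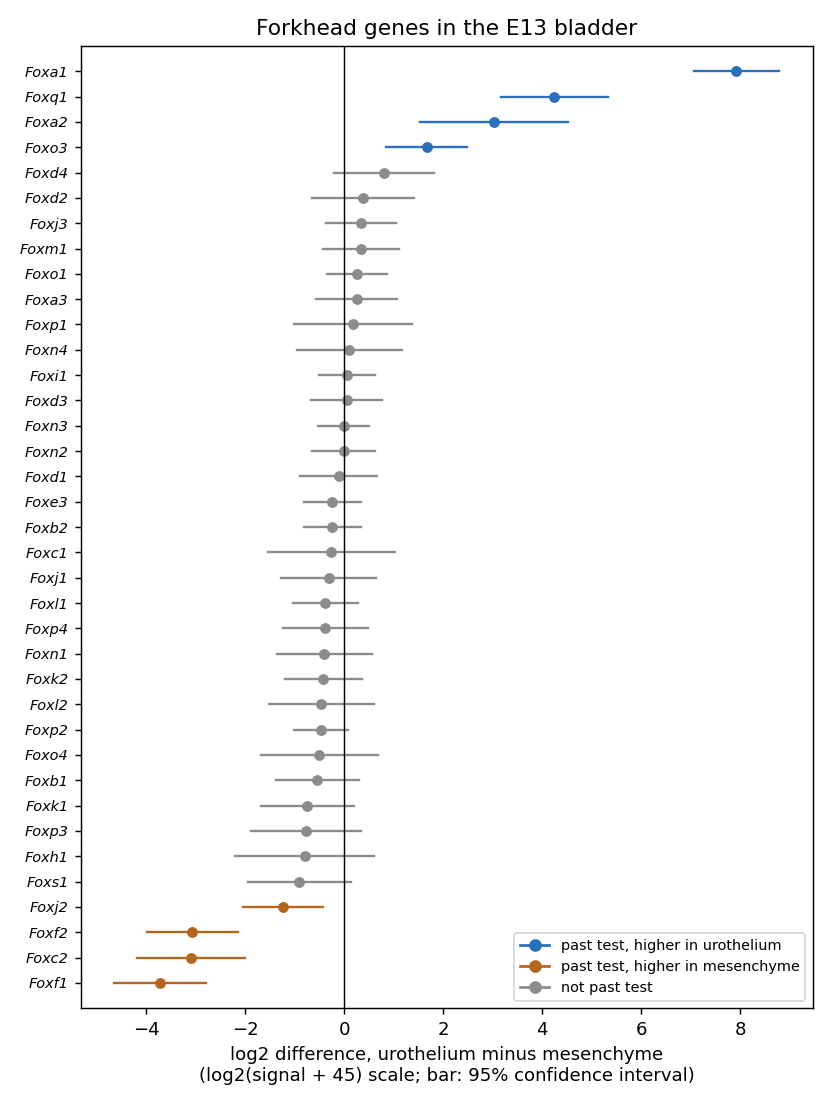
Log2 difference of each of the 37 forkhead genes (vertical axis), urothelium minus mesenchyme, with its 95% confidence interval as a bar. Foxa1 stands alone at 7.92, the 4 members higher in mesenchyme lie between −3.71 and −1.23, and the 29 grey members lie between −0.91 and 0.80.

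FoxA genes encode the factors that open chromatin in foregut and hindgut epithelia. Foxa1 had a signal of 80231, 65961 and 53957 on urothelium 5, 7 and 8, and of 393, 100.3 and 271 on mesenchyme 1, 2 and 4. Every urothelium array was far above every mesenchyme array, with means of 66716 ± 13154 and 255 ± 147 (SD, n = 3). The log2 difference was 7.92 ± 0.39, 242-fold on that scale, with a limma adjusted p of 1.34e-06. It lay between 7.31 and 8.26 under the 17 alternatives tried for it, past the test in each.

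Foxa2, a paralog that acts in endoderm and notochord, was higher in urothelium too. Its signal was 636, 750.4 and 1865 on urothelium 5, 7 and 8. On mesenchyme 1, 2 and 4 it was 285, 5.43 and 69.0. The compartments did not overlap, but the mesenchyme arrays were far apart from each other. Foxa2 differed by 3.03 ± 0.68 (limma adjusted p = 0.0107), and its size depends on the pseudocount, from 4.25 with 1 to 2.06 with 179, past the test with both. Without urothelium 8 it was 2.57 and no longer past the test (adjusted p = 0.0507), while without both mesenchyme 1 and urothelium 5 it was 4.02 (adjusted p = 0.00287). Foxa3, the third member and a factor of liver and gut, had signals of 11.8, 59.4 and 70.3 in mesenchyme and 43.0, 49.8 and 92.9 in urothelium. These overlap, and the difference of 0.25 ± 0.37 did not pass (adjusted p = 0.756; its sign turned with array weights, at −0.068, and without mesenchyme 1).

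The promoters of the member with the largest difference in each direction among those with an entry in RefSeq's promoter sequences are shown so that their motifs and base composition can be read beside the signals. They are the 250 bases before the transcription start of Foxa1 (GRCm38.p6, chr12:57546112-57546361, minus strand) and of Foxf2 (chr13:31625566-31625815, plus strand), written 5′ to 3′ along the gene, and capitals mark a forkhead motif.
Foxa1: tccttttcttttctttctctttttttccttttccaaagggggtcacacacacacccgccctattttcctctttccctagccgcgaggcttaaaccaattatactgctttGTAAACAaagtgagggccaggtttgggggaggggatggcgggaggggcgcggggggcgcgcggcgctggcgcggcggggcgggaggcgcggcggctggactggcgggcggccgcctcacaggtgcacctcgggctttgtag
Foxf2: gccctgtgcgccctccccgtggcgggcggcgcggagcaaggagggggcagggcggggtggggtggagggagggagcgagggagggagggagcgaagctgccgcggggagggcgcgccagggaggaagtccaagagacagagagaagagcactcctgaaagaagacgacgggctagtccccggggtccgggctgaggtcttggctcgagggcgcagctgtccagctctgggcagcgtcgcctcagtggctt

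The motif searched on both strands was TGTTTAC, a core bound by many forkhead proteins, which reads GTAAACA on the other strand. In the Foxa1 promoter it begins 141 bases before the start and was read as GTAAACA. Of the 24 members matched by symbol to 29 promoter windows, Foxa1 was the only gene that held it. Of all 32851 windows of that length 3.17% did, so 1 gene with the motif among 29 windows is close to the background. The Gli motif GACCACCCA (TGGGTGGTC on the other strand), letters bound by the factors of the hedgehog pathway, was in 0 of these 24 genes' windows and in 0.225% of all windows. These matches describe letters in a short window and no binding was measured. Both printed windows are rich in G and C, at 62.0% for Foxa1 and 71.6% for Foxf2, and each holds 21 CpG dinucleotides, where the median window of all genes has 52.4% and 6 and the median of the family's 29 windows has 62.8% and 17. Foxa2, Foxj2 and Foxo3 also had windows, and Foxc2, Foxf1 and Foxq1 were not matched.

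**Figure D2:**
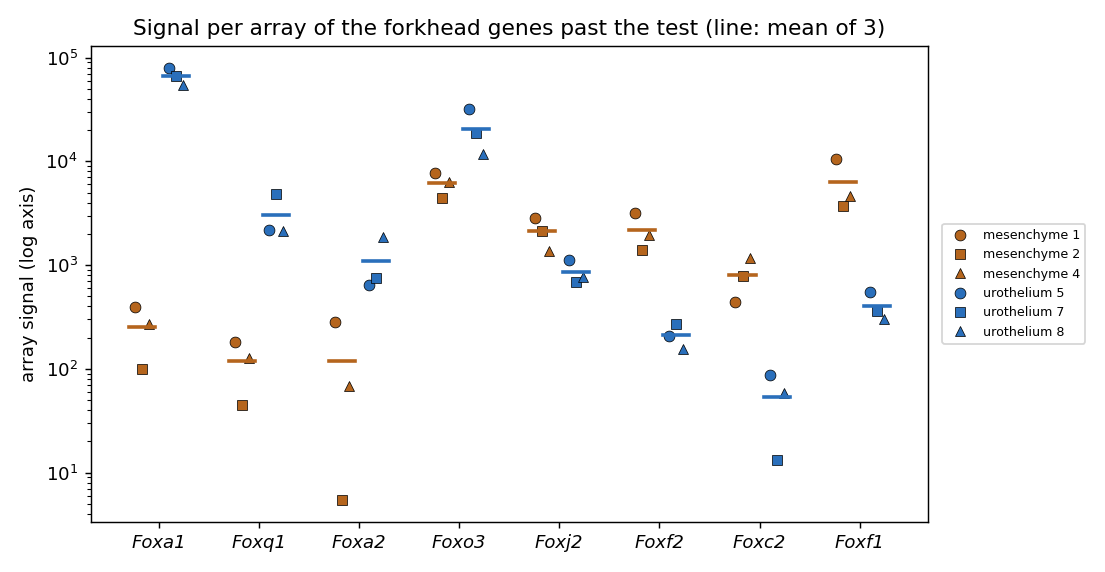
Signal on each array (log axis) of the 8 forkhead genes past the test, with mesenchyme in brown, urothelium in blue, a symbol for each array and a line at the mean of 3. The compartments do not overlap for any of them; Foxa1 spans from 100.3 to 80231, while Foxj2 has its lowest mesenchyme signal (1372) close to its highest urothelium signal (1107).

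Genes expressed with FoxA factors in epithelia were higher in urothelium for 11 of 17 measured members of a list of partners. In mesenchyme 1 was higher, and the median log2 difference was 2.52. These are 64.7% and 5.88% of the list, beside 5.8% and 8.91% of all genes. The list was picked as epithelial and shares Trp63 with the urothelial markers, so its direction partly follows from that choice. The largest differences were those of Trp63, the basal cell factor (8.24 ± 0.33), Tfap2c (7.26 ± 0.49) and Ehf (6.53 ± 0.39). Gata6, an endodermal and mesodermal GATA factor, was the member higher in mesenchyme (−1.66 ± 0.26). Nkx2-1, a partner of FoxA in lung and thyroid, had 73.0 ± 18.6 and 113 ± 35.6, and Hnf4a, the liver and gut partner, 248 ± 196 and 143 ± 61.0, in mesenchyme and urothelium, and neither passed. Of 5 hindgut markers Cdx1 and Cdx2, the caudal factors of intestine, had mean signals below 179, the median of all values, in both compartments, while Cdh17 and Vil1 were higher in urothelium.

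Foxq1, a factor of hair shaft and mucous epithelia, had 2188, 4867 and 2137 on urothelium 5, 7 and 8 and 183, 44.3 and 127 on mesenchyme 1, 2 and 4. The lowest urothelium array was far above the highest mesenchyme array. The difference was 4.25 ± 0.49 (limma adjusted p = 0.000135). Its other probe set showed 1.38 and failed the test over all probe sets (adjusted p = 0.213), and averaged over both the difference was 2.81 (adjusted p = 0.00163).

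FoxF genes carried the clearest difference towards mesenchyme. Foxf1, needed for visceral mesoderm and its vessels, had a signal of 10479, 3752 and 4685 on mesenchyme 1, 2 and 4 and 554, 361 and 302 on urothelium 5, 7 and 8. Foxf2, its paralog in gut and palate mesenchyme, had 3152, 1403 and 1966 against 206, 271 and 156. For both genes mesenchyme 1 was the highest array and mesenchyme 2 the lowest of its compartment, and no urothelium array overlapped. Foxf1 differed by −3.71 ± 0.42 (limma adjusted p = 0.000126) and Foxf2 by −3.06 ± 0.41 (adjusted p = 0.000436). Without both mesenchyme 1 and urothelium 5 they were −3.50 and −2.76, and both passed. The other probe set of Foxf1 differed by −1.71 and that of Foxf2, dim on all arrays, by −0.34, and neither was past the test over all probe sets. Averaged over both probe sets Foxf1 differed by −2.71 (adjusted p = 0.00460) and Foxf2 by −1.70 (adjusted p = 0.00919).

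Hedgehog genes, whose signal from gut epithelium FoxF genes are known to follow, were split between the compartments. Of 13 measured members 8 were higher in mesenchyme and 1 in urothelium, with a median of −1.33. These are 61.5% and 7.69% of the list, beside 8.91% and 5.8% of all genes. The ligand gene Shh was the member higher in urothelium (8.10 ± 0.28), and Gli2 (−4.25 ± 0.45), the co-receptor gene Gas1 (−4.01 ± 0.38) and Hhip (−3.44 ± 0.54), a target that binds the ligand, differed most in the other direction. Across arrays of mesenchyme Hhip had 5468, 1979 and 1514 on mesenchyme 1, 2 and 4. Ptch1, of the same list, had 50173, 29320 and 31324 on these arrays. Both were highest on mesenchyme 1, as were 47.1% of all genes, and whether this order follows hedgehog signals was not tested. Gli1, another target, was lowest on mesenchyme 1, with 433 against 899 and 1102.

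FoxC genes, which act in paraxial mesoderm, vessels and lymphatic valves, differed from each other. Foxc2 had 444, 788 and 1171 on mesenchyme 1, 2 and 4 and 87.4, 13.2 and 59.0 on urothelium 5, 7 and 8. All mesenchyme arrays were above all urothelium arrays, and the difference was −3.09 ± 0.50 (limma adjusted p = 0.00138). Its urothelium signals are dim, and its size depends on the pseudocount, from −4.14 with 1 to −2.02 with 179, past the test with both. Foxc1 had 3830.2, 845 and 1859 in mesenchyme and 682, 1996 and 2536 in urothelium. Its compartments overlapped widely, and the difference of −0.26 ± 0.58 failed the test (adjusted p = 0.849), with a 95% interval of −1.54 to 1.02. Its sign was the opposite without both mesenchyme 1 and urothelium 5 (0.82, adjusted p = 0.233), without either of them alone, with array weights (0.43) and in its other probe set (0.15).

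Foxc2 lay on the side of the vascular genes, but this side does not single them out. All 10 mesenchymal markers (median log2 difference −4.91) and all 6 smooth muscle markers (median −4.83) lay there too. The 8 endothelial markers had a summed signal of 17539.8 to 22289.5 on mesenchyme arrays and 1040.4 to 1583 on urothelium arrays, with a median log2 difference of −3.63, and no listed marker had a signal of 0. Whether endothelial cells account for the Foxc2 signal was not tested. Of 24 measured mesenchymal and vascular genes linked to FoxC and FoxF, 18 were higher in mesenchyme and 2 in urothelium, with a median of −3.64. These are 75% and 8.33% of the list, beside 8.91% and 5.8% of all genes. The list was picked as mesenchymal and vascular and shares Pdgfra, Pdgfrb, Myocd, Kdr and Tek with the marker lists. Its direction therefore largely follows from that choice. Wnt2 (−5.28 ± 0.30), Tbx18 (−5.06 ± 0.43) and Pdgfra (−4.97 ± 0.43) led, and Msx2 (2.93 ± 0.52) and Notch1 (1.10 ± 0.29) were the members higher in urothelium. Foxs1, a gene of pericytes and perivascular cells, had 27.0, 216 and 113 on mesenchyme 1, 2 and 4 and 20.4, 59.2 and 20.8 on urothelium 5, 7 and 8. It overlapped and failed the test (−0.91 ± 0.47, adjusted p = 0.271), but passed without mesenchyme 1 (−1.41, adjusted p = 0.0377) and with array weights (−1.06, adjusted p = 0.0360).

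Some forkhead genes stand side by side in the genome, a feature the choice of members did not use. In RefSeq's table for GRCm38.p6, 8 members in 3 clusters had no more than 10 genes between them and the next member, and 4 of these 8 passed the test, as did 4 of the other 29, beside 14.7% of all genes. The difference between these shares was not tested. In the first cluster Foxq1, Foxf2 and Foxc1 follow each other with 0 protein-coding genes between. These neighbours showed opposite patterns: Foxq1 was higher in urothelium (4.25), Foxf2 higher in mesenchyme (−3.06) and Foxc1 not past the test (−0.26). In another cluster Foxf1 and Foxc2, with only Mthfsd between them, were both higher in mesenchyme (−3.71 and −3.09). Mthfsd had a mean signal of 804 in mesenchyme and 627 in urothelium, a difference of −0.38 ± 0.40 that failed the test (adjusted p = 0.639).

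Foxl1, a factor of the mesenchyme beneath gut epithelium, directly follows Foxc2. It had 63.5, 17.4 and 16.7 on mesenchyme 1, 2 and 4 and 11.1, 11.6 and 14.8 on urothelium 5, 7 and 8. The arrays did not overlap, but nearly all signals were in the range of the dimmest probe sets, and the difference of −0.38 ± 0.29 did not pass (adjusted p = 0.500). The last cluster pairs Foxd2, a factor of paraxial and kidney mesenchyme, with Foxe3, a lens factor. Foxd2 had 679, 295 and 252 in mesenchyme and 709, 436 and 391 in urothelium, which overlap (0.37 ± 0.47, adjusted p = 0.705). Foxe3 had 38.7, 13.6 and 11.1 against 7.34, 10.01 and 13.5, and did not pass either (−0.24 ± 0.26, adjusted p = 0.657).

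**Figure D3:**
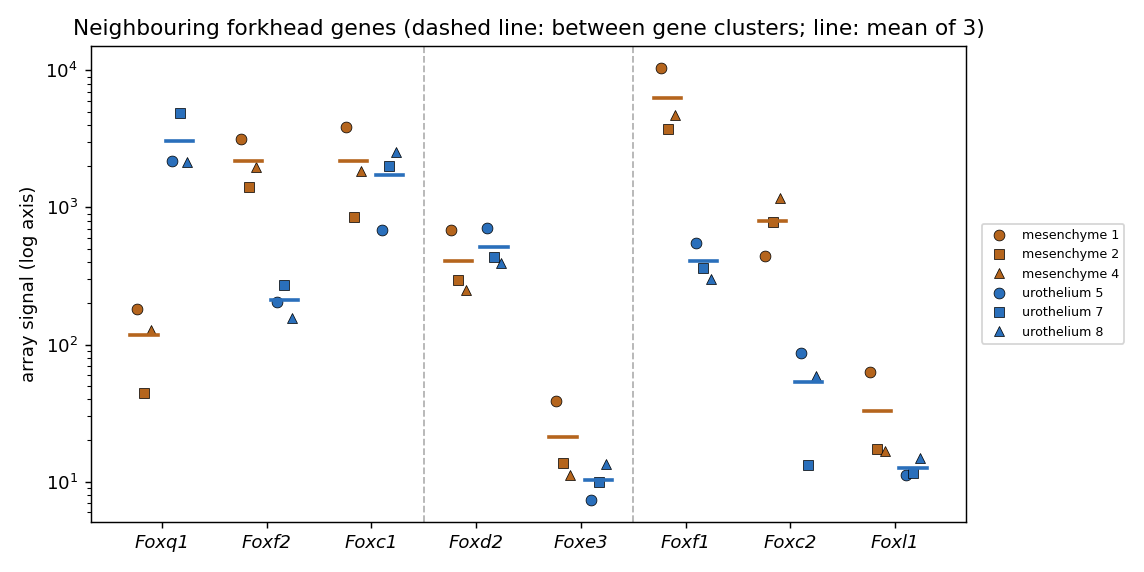
Signal on each array (log axis) of the 8 forkhead genes that have another member close by, in gene order within each cluster, with mesenchyme in brown, urothelium in blue and a line at the mean of 3. Foxq1 and Foxf2, side by side, are high in opposite compartments (log2 differences 4.25 and −3.06), and Foxl1 and Foxe3 reach at most 63.5 and 38.7 on any array.

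Among the FoxO factors, which switch on genes of stress resistance and cell cycle arrest when AKT is inactive, only Foxo3 passed the test. Foxo3 had 31643, 18732 and 11693 on urothelium 5, 7 and 8 and 7743, 4404 and 6261 on mesenchyme 1, 2 and 4. Every urothelium array was above every mesenchyme array, and urothelium 5 was the highest. The difference was 1.67 ± 0.37 (limma adjusted p = 0.0106), and 1.49 without both mesenchyme 1 and urothelium 5 (adjusted p = 0.0122). A further probe set of the gene showed 1.21 and a very dim one 0.048, neither past the test over all probe sets, and averaged over all 3 the difference was 0.98 and no longer passed (adjusted p = 0.0763).

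Foxo1 had 1853, 2561 and 2114 in mesenchyme and 2499, 2729.8 and 2567 in urothelium. These lie close together, and the difference of 0.26 ± 0.27 did not pass (adjusted p = 0.637; 95% interval −0.34 to 0.87). Foxo4 had 243, 1064 and 759.8 against 268, 483 and 503, with mesenchyme 1 the lowest of all (−0.50 ± 0.53, adjusted p = 0.645). Without mesenchyme 1 it was −1.07 (limma adjusted p = 0.133). Its other, dimmer probe set had 235, 73.9 and 110 against 20.7, 23.8 and 43.3, which do not overlap. That difference of −1.23 failed limma's test over all probe sets (adjusted p = 0.101). Averaged over both probe sets Foxo4 differed by −0.87 and did not pass (adjusted p = 0.123). Of 28 measured genes that control FoxO factors or are their targets, 2 were higher in urothelium and 4 in mesenchyme, with a median of 0.05; these are 7.14% and 14.3% of the list, beside 5.8% and 8.91% of all genes. Bcl6, a FoxO target and repressor (1.35 ± 0.37), and the kinase gene Sgk3 (1.31 ± 0.34) were higher in urothelium. Klf2, a target in endothelium (−2.66 ± 0.42), the stress gene Gadd45b (−2.03 ± 0.45) and the insulin receptor substrate gene Irs1 (−1.78 ± 0.24) led in mesenchyme.

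Foxj2, a widely expressed activator, was the weakest of the members past the test. It had 2824, 2149 and 1372 on mesenchyme 1, 2 and 4 and 1107, 693 and 764 on urothelium 5, 7 and 8. The compartments do not overlap, by a small margin, and the difference was −1.23 ± 0.37 (limma adjusted p = 0.0460). Relative to the median gene it was −1.12. The call was lost in 10 of 17 alternatives, among them without mesenchyme 1 (−0.998), mesenchyme 2 (−1.19), urothelium 7 (−1.10) or urothelium 8 (−1.17), without both mesenchyme 1 and urothelium 5 (−1.19, adjusted p = 0.0507) and with arrays centred on their medians (−1.05). Its paralog Foxj3, which acts in muscle and germ cells, had 14396, 13760.5 and 12692 in mesenchyme and 27987, 15574 and 11814 in urothelium and did not pass (0.34 ± 0.32, adjusted p = 0.588). Foxj3 was named for its high signal, and its high array in urothelium was urothelium 5.

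**Figure D4:**
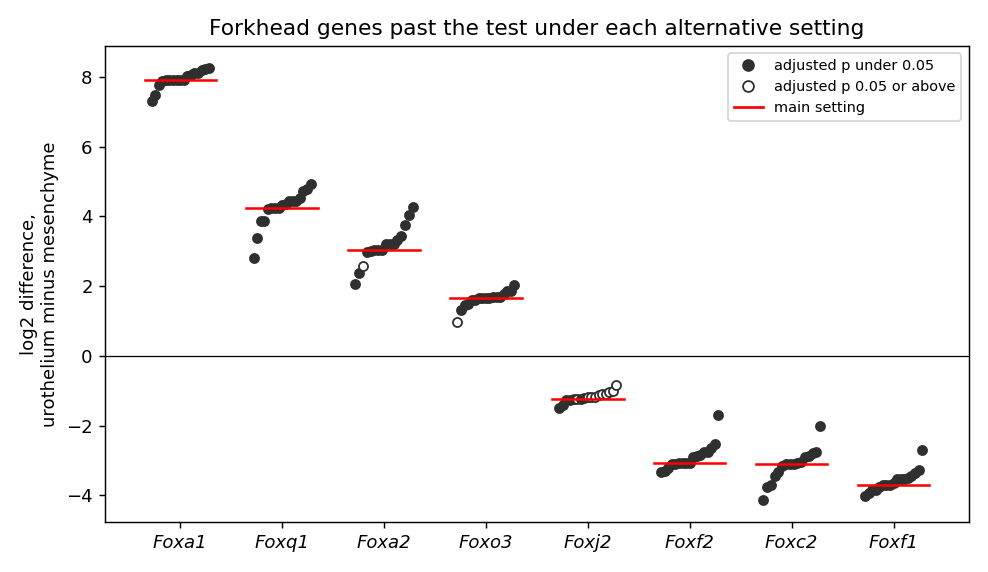
Log2 difference, urothelium minus mesenchyme, of the 8 forkhead genes past the test under each alternative setting, with the main value as a red line and open points for settings with an adjusted p of 0.05 or above. Foxa1, Foxq1, Foxf1, Foxf2 and Foxc2 have filled points only, Foxa2 and Foxo3 have 1 open point each, and Foxj2 has 10.

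Foxm1, which drives the genes of G2 and mitosis, had 1569.9, 887 and 1147 on mesenchyme 1, 2 and 4 and 1111, 1752 and 1713 on urothelium 5, 7 and 8. The arrays overlapped and the difference of 0.34 ± 0.35 did not pass (adjusted p = 0.629); averaging its probe sets turned the sign (−0.23). Of 20 measured mitotic genes that FoxM1 is known to drive, 1 passed, the kinetochore gene Cenpf (1.17 ± 0.27, higher in urothelium), and the median was −0.29. This is 5% of the list, near the 5.8% of all genes higher in urothelium, and 0 of the 20 were higher in mesenchyme in limma's test (1 at an unadjusted p under 0.05), where 8.91% of all genes were.

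FoxP factors are mostly repressors of transcription that act in lung, brain and lymphoid development. Foxp1 had 5829.6, 9964 and 7752 in mesenchyme and 3085, 18390.5 and 11256 in urothelium, where urothelium 5 was the lowest of all arrays. Foxp2 had 5627, 6125 and 5944 against 4750.0, 4221 and 3801. Foxp2 was therefore higher on all mesenchyme arrays, but its difference of −0.47 ± 0.25 did not pass (adjusted p = 0.275), and that of Foxp1 was 0.17 ± 0.54 (adjusted p = 0.899). Foxp4 had 469, 394 and 385 in mesenchyme and 240.2, 354 and 342 in urothelium (−0.38 ± 0.39, adjusted p = 0.629). Foxp4 too did not overlap between compartments. Foxp3, the factor of regulatory T cells, had 239.8, 117 and 45.1 in mesenchyme and 9.67, 96.5 and 63.1 in urothelium (−0.77 ± 0.50, adjusted p = 0.404), and 0 of 4 measured T cell markers passed limma's test (0 at an unadjusted p under 0.05), all with mean signals below 179. Of 11 measured partners of FoxP proteins 1 passed, the deacetylase gene Hdac7 (−1.16 ± 0.35, higher in mesenchyme); this is 9.09% of the list, beside 8.91% of all genes in that direction.

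The other members did not pass. Foxn3, a checkpoint-linked repressor named for its high signal, was nearly the same on all arrays, with 11039, 10608 and 9848 in mesenchyme and 10801, 9581 and 11008 in urothelium. Its difference was −0.0058 ± 0.23, with a 95% interval of −0.52 to 0.51. Foxn2, also named for its signal, had 5954, 6178 and 6386 against 7259, 7611 and 4150.4 (−0.011 ± 0.29). The signs of both are not settled: they turned with arrays centred on their medians, where Foxn3 was 0.18 and Foxn2 0.17. Foxk1 and Foxk2, repressors of autophagy genes, differed by −0.75 ± 0.43 and −0.42 ± 0.35, and Foxk1 had 13836 on mesenchyme 1 against 4525 and 4597 on mesenchyme 2 and 4. Foxl2, the ovarian granulosa factor, differed by −0.46 ± 0.48.

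A group of 15 members had a mean signal below 179 in both compartments: Foxa3, Foxb1, Foxb2, Foxd1, Foxd3, Foxd4, Foxe3, Foxh1, Foxi1, Foxj1, Foxl1, Foxn1, Foxn4, Foxp3 and Foxs1. None of the 15 passed limma's test, and 0 of the 29 members that did not pass had an unadjusted p under 0.05. The share of all genes that did not pass but had such a p is not given here, so this 0 has no background beside it. No detection calls were used, so these genes are not said to be absent. Among all genes 29.4% were as dim, and 1.7% of those passed, so few genes this dim passed in either direction. Some of the 15 are known from other settings: Foxd3 of neural crest, Foxd1 of kidney stroma, Foxi1 of ionocytes and intercalated cells, Foxn1 of thymus and skin, and Foxh1 of nodal signalling. The same group holds Foxl1 of the mesenchyme beneath gut epithelium, Foxs1 of pericytes and Foxa3 of liver and gut. Foxl2, the ovarian factor, is not in it. Whether dimness goes with lineage was not tested. Foxj1, which drives motile cilia, had 232, 89.7 and 78.9 in mesenchyme and 55.6, 132 and 89.2 in urothelium, and 0 of 7 measured genes of multiciliated cells passed limma's test, 1 of them with an unadjusted p under 0.05. Foxd4 did not pass (0.80 ± 0.46, adjusted p = 0.326), but passed with array weights (1.46, adjusted p = 0.00687). Of 11 measured genes of nodal and Smad signalling with which FoxH1 acts, Lefty1 (−2.35 ± 0.50) was higher in mesenchyme and Acvr2a (1.19 ± 0.28) in urothelium. Each is 9.09% of that list, near the 8.91% and 5.8% of all genes.

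Of the 37 members 21 had more than 1 probe set. The 45 further probe sets of these genes gave 0 calls in limma's test over all probe sets, and 6 of them had an unadjusted p under 0.05. By the rule of choice they are the dimmer probe sets of each gene. The share of calls among the further probe sets of all genes is not given here, so the 0 is not read as a trait of the family. Of the genes past the test, Foxq1, Foxo3, Foxj2, Foxf1 and Foxf2 had further probe sets, each with the sign of the one used.

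**Figure D5:**
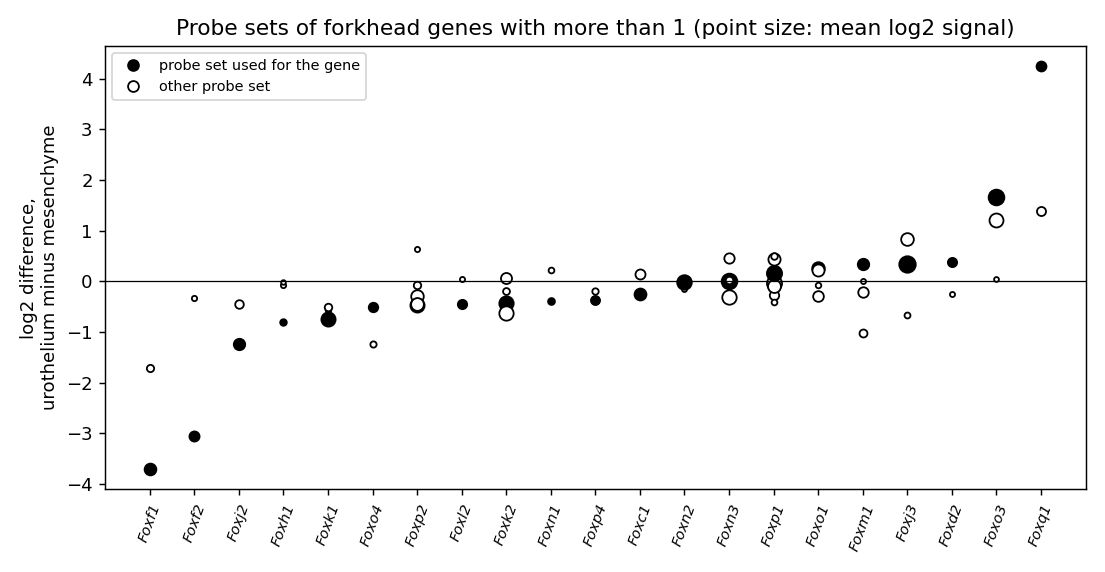
Log2 difference, urothelium minus mesenchyme, of each probe set of the 21 forkhead genes with more than 1, with the probe set used for the gene filled and larger points for higher mean log2 signal. The further probe set lies nearer to 0 for Foxf2 (−0.34 beside −3.06) and Foxq1 (1.38 beside 4.25).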

How the data were processed

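The deposited values are intensities on a linear scale, 1 per probe set and array; GCOS is the software that the submitters' processing notes name, and the algorithm is not given in the sources used here. In the deposited intensities the 2% trimmed mean of each array is 1500. Of 45101 probe sets, 64 controls were left out, and 34945 had a single symbol, 932 several and 9160 none in the platform annotation; 34741 matched RefSeq by Entrez identifier and 0 symbols changed. A gene was represented by its probe set of highest mean log2 signal. Log2 values were computed here from the deposited intensities after adding 45, the 25th percentile of all values, and fitted with limma 3.58.1 (R 4.3.3; lmFit, eBayes with an intensity trend) over all 18193 genes, with Benjamini-Hochberg adjustment and a threshold of 0.05. The fit was tested on simulated data in which few genes were changed. It recovered 16% of 2-fold, 84% of 4-fold and 100% of 16-fold differences, and 9 of its 159 calls were false. Differences of 2-fold were thus mostly missed there. In the data 14.7% of all genes passed, and the adjustment is stricter where few genes are changed. The shares recovered therefore need not hold for the data. The depth of arrays is not counted; signal over background limits dim genes.

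Per-array values are given for members past the test, for all FoxA, FoxC, FoxF, FoxM, FoxO and FoxP members and for members within 10 genes of another; of the rest, the 3 of highest mean signal (Foxj3, Foxn3, Foxn2) are named. Values of Foxs1, Foxd4, Foxj1, Foxk1, Foxk2 and Foxl2 were added after they were seen. Of each companion list the 3 members with the largest difference past the test in each direction are named. Nkx2-1, Hnf4a, Gli1, Ptch1 and the hindgut markers were chosen after their values were seen. The members and all lists were chosen with earlier results of these data known. Promoters (250 bases) and gene order come from RefSeq (GRCm38.p6), and a planned comparison of proteins was not run. Alternatives were other pseudocounts (1 and 179), quantile normalization, median centring, a filter on dim genes, no trend, array weights, other uses of probe sets, other thresholds and leaving out each array; leaving out mesenchyme 1 and urothelium 5 together and the actin ratio as a covariate were chosen after seeing the data.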

Additional observations from a re-analysis of the deposited data

How the results depend on the processing

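Foxa1, Foxq1, Foxf1, Foxf2 and Foxc2 passed the test under every alternative in which they were tested. Foxa2 lost its call without urothelium 8, Foxo3 in the mean of its probe sets and Foxj2 in 10 of 17 alternatives. With an adjusted p under 0.01, 2 members were higher in urothelium and 3 in mesenchyme. Leaving out 1 array gave 3 to 4 in each direction and a family median of −0.37 to −0.04. Without both mesenchyme 1 and urothelium 5 the family median was 0.034. The medians of all genes with arrays left out are not given here. Centring on medians moved the median of all genes by 0.19 and quantile normalization by 0.09. Signs turned for members that did not pass: with a pseudocount of 1, Foxn4 (−0.047); with centring, Foxd1 (0.072), Foxn2 (0.17) and Foxn3 (0.18); with array weights, Foxa3 (−0.068), Foxc1 (0.43), Foxj1 (0.22), Foxn1 (0.015) and Foxn2 (0.13); in the mean of probe sets, Foxm1 (−0.23) and Foxn3 (0.042); and without mesenchyme 1 and urothelium 5, Foxc1 (0.82), Foxh1 (0.10), Foxj1 (0.26), Foxl2 (0.21), Foxn3 (0.0069) and Foxp3 (0.034). Leaving out 1 array gave ranges across 0 for Foxa3 (−0.067 to 0.44), Foxc1 (−0.80 to 0.29), Foxd1 (−0.33 to 0.078), Foxd3 (−0.20 to 0.26), Foxi1 (−0.073 to 0.19), Foxj1 (−0.53 to 0.050), Foxj3 (−0.0035 to 0.62), Foxn2 (−0.17 to 0.27), Foxn3 (−0.051 to 0.056), Foxn4 (−0.21 to 0.59) and Foxp1 (−0.37 to 0.90). The cause was not tested. Where a fit left 2 arrays in a compartment, the spread was pooled with the other. Signal over background limits the dim members. No paired analysis was possible because the compartments share no replicate numbers.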

Other observations

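Mesenchyme 1 was the highest of the 3 mesenchyme arrays for 27 of 37 forkhead genes (73%) and for 47.1% of all genes. Urothelium 5, with a like actin ratio, was the highest urothelium array for 10 of the 37 (27%, against 28.5% of all genes) and the lowest for 20 of the 37, against 47.7% of all genes. The median signal was 239.7 on mesenchyme 1 and 131.6 on urothelium 5, against 161 to 192 on the other arrays. The part of array quality in these orders was not tested.

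Foxd3, a factor of neural crest, did not pass (0.05 ± 0.32, adjusted p = 0.948). Of 6 measured neural crest and glial markers Erbb3 and Ret were higher in urothelium and Stmn2 in mesenchyme, and the median difference was −0.32. Their summed signal was 25229 to 30643 in urothelium and 2456 to 7129 in mesenchyme, and most of the urothelium sum was the signal of Erbb3 (mean 23951). Sox10, which defines neural crest, had mean signals of 323 in mesenchyme and 374 in urothelium.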
